A study of Mus musculus with 6 samples.

Results

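The clustered protocadherins are cadherin-like adhesion proteins of the neuronal surface, encoded by the Pcdha, Pcdhb and Pcdhg genes, which lie one after another on mouse chromosome 18. They were examined in neuro2a (N2a) cells, a mouse neuroblastoma line, in which NF-YA and NF-YC, subunits of the CCAAT-binding transcription factor NF-Y, had been knocked down. The members are all genes whose symbol begins with Pcdha, Pcdhb or Pcdhg, which are 58 genes of the RefSeq table: 14 alpha, 22 beta and 22 gamma. Probes for 35 of them could be named on the array, namely 7 alpha, all 22 beta and 6 gamma genes, with 38 probes in all. After the filter on low signal 34 genes were tested, among 16478 genes of the whole array. The 3 families were selected on the measured rise of beta genes in this same comparison, so the values below describe that rise and carry no test of their own.

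Control cells (titled Vector_KD) were N2a cells that received a control vector, read from that title as the empty RNAi vector. The paper names both an empty and a non-targeting vector as controls. Knockdown cells (titled YAYC_KD) received vectors producing artificial microRNAs against both NF-YA and NF-YC, with 3 arrays in each group. Both groups were transiently transfected, so all values are averages over cells that took up a vector and cells that did not. One cell line was used, and no source states that replicates were separate cultures, so the errors measure the spread between these samples, which may be technical. Where a signal differs, fewer cells expressing a gene and less RNA per cell cannot be told apart.

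In neurons, each cell is known to express its own mixture of clustered protocadherins. Proteins on opposing membranes bind when their isoforms match, and this lets branches of one neuron recognise and avoid each other. Each alpha and gamma gene has a variable exon of its own, with its own promoter, that is spliced to constant exons shared by its family, whereas each beta gene is a single exon. Most of these promoters hold a conserved sequence element and a site for CTCF, the architectural protein that, with cohesin, loops a distant enhancer to the promoter that is used. In the RefSeq table the beta genes span 2340 to 5271 bases, against 43986 to 257373 bases for alpha genes and 22328 to 180096 bases for gamma genes. Which part of a gene each probe covers was not analysed here, and cross-hybridisation between the similar beta genes was not tested.

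Calls for higher signal fell among the beta genes. Of 21 beta genes tested, 13 were called higher in knockdown cells and 0 were called lower, where a call needs a limma adjusted p under 0.05 together with a difference of over 1.5-fold. Of 7 alpha genes 0 were called in either direction, and of 6 gamma genes 0 were called higher and 1, Pcdhga9, was called lower. Over all 16478 genes, 645 (3.91%) were called higher and 824 (5.00%) lower. At an unadjusted p below 0.05 in the same limma fit, 17 beta genes were higher and 0 lower, 1 alpha gene was higher and 0 were lower, and 1 gamma gene was higher and 1 lower. At that threshold 23.2% of all genes were higher and 23.0% lower. The median change, knockdown minus control on the log2 scale, was 0.88 over the beta genes, a 1.84-fold difference. It was 0.10 over the alpha genes, 0.21 over the gamma genes and 0.0052 over all genes tested, and the gamma median turned to -0.00728 when background was corrected by normexp (a model of signal plus background) with an offset of 50 before quantile normalization. With that offset the beta median was 0.41 to 0.47, depending on the scaling. The alpha median was 0.29 without control replicate 2, 0.24 without knockdown replicate 3 and 0.23 with the probes of a gene averaged. Because the members were picked for this contrast, nothing is read from these shares beyond the description.

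**Figure D1:**
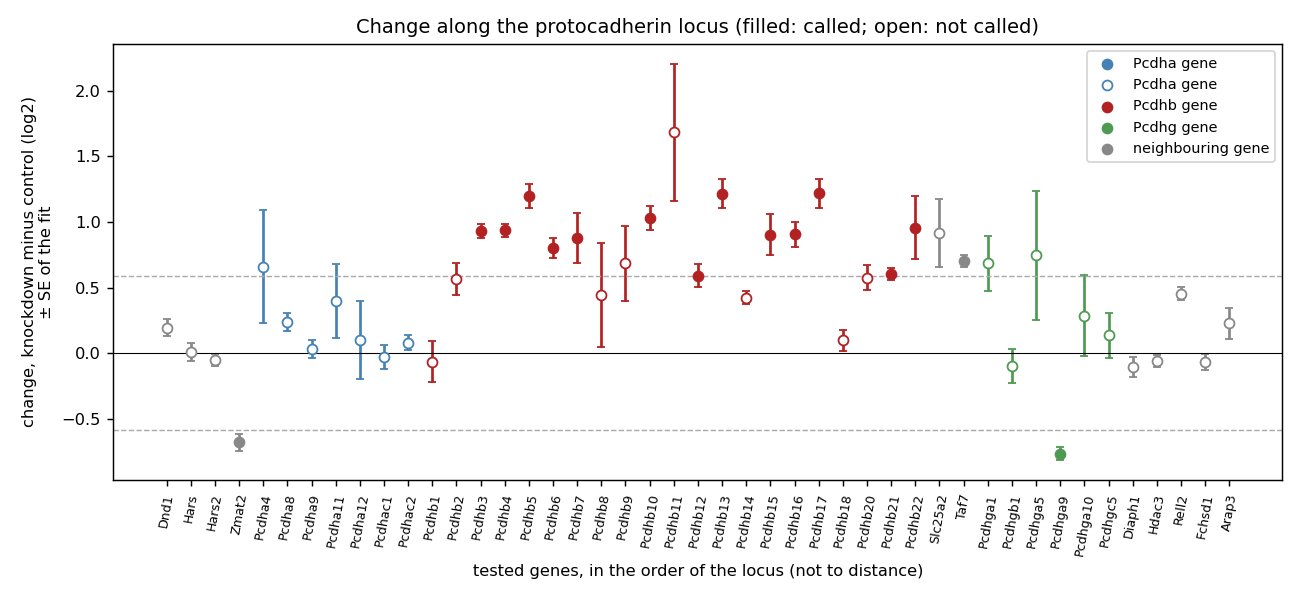
Change of each tested gene, knockdown minus control in log2 units with the SE of the fit (vertical axis), for Pcdha, Pcdhb and Pcdhg genes and the genes on either side, in the order of the locus (horizontal axis, not to distance). Filled points were called, open points were not, and dashed lines mark the 1.5-fold limit. Pcdhb genes lie mostly between 0.42 and 1.22, while most Pcdha and Pcdhg genes lie nearer to 0; the signals of Pcdhb13, Pcdha4, Pcdhga5, Pcdhga10 and Slc25a2 did not clear the background.

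Signals were scaled by taking log2 of the processed intensity and subtracting the 75th percentile of the same array, so that a value below 0 lies under that percentile, and only differences within one probe are compared. In 17 of 21 beta genes every knockdown array lay above every control array, a pattern shown by 27.7% of all genes tested (the opposite pattern by 27.1%). In the other 4, Pcdhb1, Pcdhb8, Pcdhb9 and Pcdhb18, the groups overlapped. The same separation was seen in 1 of 7 alpha genes (Pcdha8) and 1 of 6 gamma genes (Pcdhga1), and 1 gamma gene (Pcdhga9) lay below all controls. Of the 22 beta genes, 17 were well above background on all 6 arrays. Pcdhb13 and Pcdhb19 were well above background on none, and Pcdhb19 did not pass the filter on low signal. Pcdhb13, which counts among the genes without overlap, passed that filter through its knockdown arrays only.

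**Figure D2:**
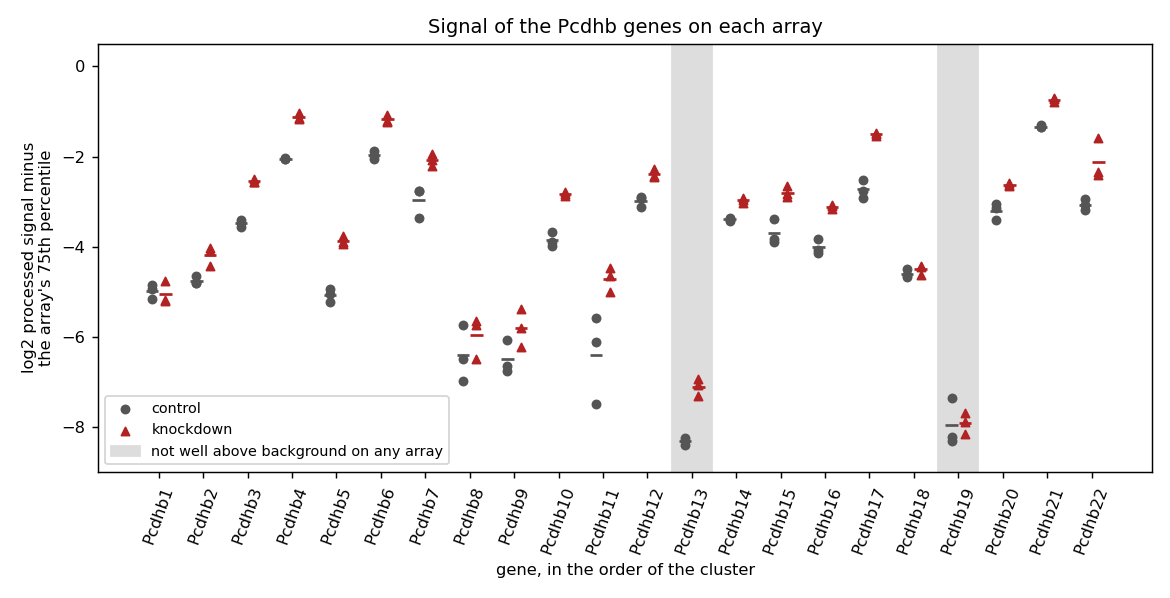
Signal of each Pcdhb gene on every array, as log2 processed signal minus the array's 75th percentile (vertical axis), with genes in cluster order (horizontal axis), control arrays as circles, knockdown arrays as triangles and group means as short bars. Triangles sit above circles for 17 genes; shaded genes, Pcdhb13 and Pcdhb19, did not clear the background.

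Of the 13 beta genes called higher, 12 also cleared the background on each of the 6 arrays: Pcdhb3, Pcdhb4, Pcdhb5, Pcdhb6, Pcdhb7, Pcdhb10, Pcdhb12, Pcdhb15, Pcdhb16, Pcdhb17, Pcdhb21 and Pcdhb22. All encode adhesive beta isoforms with the same domain plan. Their changes ran from 0.59 to 1.22, or 1.51-fold to 2.33-fold, with SEs between 0.046 and 0.24. The genes are dim: their processed signals lay between 20.1 and 444 intensity units, where the 75th percentile of an array was 718 to 754.

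The largest change among these 12 was that of Pcdhb17. Its normalized signal was -2.92, -2.76 and -2.51 on the control arrays and -1.50, -1.55 and -1.48 on the knockdown arrays. The knockdown arrays lay close together and all above the controls, with a change of 1.22 (SE 0.11), or 2.33-fold. Pcdhb5 had nearly the same change, 1.20 (SE 0.094), from -5.23, -5.05 and -4.94 on the control arrays to -3.95, -3.90 and -3.78 on the knockdown arrays. Its processed signals were only 20.1 to 24.6 units on the control arrays and 48.2 to 53.3 units on the knockdown arrays. For Pcdhb10 the control arrays gave -3.90, -3.99 and -3.68 and the knockdown arrays -2.84, -2.79 and -2.87. That is a change of 1.03 (SE 0.091), or 2.04-fold, with no overlap between the groups.

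Pcdhb3 and Pcdhb4, neighbours in the cluster, changed by 0.93 (SE 0.055) and 0.94 (SE 0.050). Pcdhb4 was at -2.06, -2.04 and -2.06 on the control arrays and -1.04, -1.16 and -1.16 on the knockdown arrays, a spread of 0.013 and 0.067 (SD, n = 3) around group means of -2.05 and -1.12. The difference exceeded this spread, which was small for the family: among the 12 called genes above background the SD within a group reached 0.45. Pcdhb3 was printed in 10 spots on each array, which gives the error of a single spot. Its means were -3.56, -3.48 and -3.41 on the control arrays and -2.51, -2.57 and -2.57 on the knockdown arrays, while the spots of one array had an SD of 0.065 to 0.15. On knockdown replicate 3 a spot at -0.64 carried an outlier flag and was left out, so that array's mean is over 9 spots. No spot kept on a knockdown array was as low as any control spot: the knockdown spots ran from -2.78 upwards and the control spots reached at most -3.28.

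Pcdhb6 was at -1.99, -1.87 and -2.06 on the control arrays and -1.21, -1.07 and -1.23 on the knockdown arrays, a change of 0.80 (SE 0.077). Pcdhb16 was at -4.15, -3.83 and -4.09 on the control arrays and -3.17, -3.08 and -3.10 on the knockdown arrays, a change of 0.91 (SE 0.097). In both genes the groups were well apart, by more than the range within either group.

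A single array weighed more in 3 genes. Pcdhb22, the last beta gene of the cluster, was at -2.95, -3.20 and -3.07 on the control arrays and at -2.41, -1.60 and -2.34 on the knockdown arrays. Knockdown replicate 2 stood above the other two, which gave this gene the widest spread within a group (SD 0.45, n = 3) and the largest SE, 0.24, beside a change of 0.96. The change was 0.65 without knockdown replicate 2 and 1.1 without knockdown replicate 1. Its call was kept without knockdown replicate 2 and lost when any other array was left out. Pcdhb7 was at -3.36, -2.76 and -2.77 on the control arrays and -2.22, -1.94 and -2.09 on the knockdown arrays, so control replicate 1 was the low one, and the change was 0.88 (SE 0.19). Its call was lost when any array other than control replicate 1 was left out, with changes of 0.81 to 0.98. Pcdhb15 was at -3.90, -3.39 and -3.82 on the control arrays and -2.84, -2.65 and -2.91 on the knockdown arrays, with control replicate 2 nearest to the knockdown arrays and a change of 0.90 (SE 0.16). This call was lost without control replicate 1 or 3 or knockdown replicate 1 or 2, where the change was 0.81 to 0.92.

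Pcdhb21 and Pcdhb12 had the smallest changes among the called genes. Pcdhb21 was at -1.35, -1.35 and -1.31 on the control arrays and -0.79, -0.69 and -0.73 on the knockdown arrays, so its change of 0.60 came with an SE of only 0.046. The call limit of 1.5-fold lies at 0.58 on the log2 scale. Pcdhb12, at 0.59 (SE 0.089, 1.51-fold), was just inside it, and Pcdhb20, at 0.58 (SE 0.099, 1.49-fold), just outside. Pcdhb20 was at -3.06, -3.40 and -3.14 on the control arrays and -2.65, -2.63 and -2.59 on the knockdown arrays, with no overlap. Calls therefore divide genes that hardly differ in their change. That of Pcdhb12 was lost without control replicate 3 (0.52) or knockdown replicate 3 (0.53), that of Pcdhb21 without knockdown replicate 2 (0.58), and Pcdhb20 was called without control replicate 1 or 3 or knockdown replicate 1.

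Pcdhb13 was called as well, but its processed signal was 2.17 to 2.46 units on the control arrays and 4.54 to 5.83 units on the knockdown arrays. None of these spots was well above background, so no size of change is given for it here, although it counts among the 13 calls and in the beta median. Pcdhb13 passed the filter on low signal through its knockdown arrays only. With the 20th percentile required on all 6 arrays it was not tested. In that fit 12 of 20 beta genes were called, against 3.81% of all genes, and the beta median was 0.84. Where every array of at least 1 group had to clear the background, 12 of 18 beta genes were called, against 3.98% of all genes. The beta median was then 0.89, with Pcdhb11 entering through its knockdown arrays only. Pcdhb11 had the largest fitted change of the family, 1.68, and was not called, because its control arrays were spread from -7.51 to -5.58 and the SE was 0.52. It was well above background on all 3 knockdown arrays, at -5.00, -4.66 and -4.48, but on 1 control array.

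The remaining beta genes were not called. Pcdhb2 (0.56, SE 0.12) and Pcdhb14 (0.42, SE 0.049) lay above the controls on every knockdown array and fell short of the fold limit, though Pcdhb2 was called without knockdown replicate 3 (0.68). Pcdhb18 was at -4.67, -4.64 and -4.51 on the control arrays and -4.45, -4.63 and -4.43 on the knockdown arrays, and with a change of 0.10 (SE 0.080) its groups overlapped. Pcdhb8 (0.44, SE 0.40) and Pcdhb9 (0.69, SE 0.29) were well above background on only some arrays of each group, and their groups overlapped too. Pcdhb1, the first beta gene, was at -4.86, -4.94 and -5.16 on the control arrays and -4.76, -5.21 and -5.18 on the knockdown arrays. It was the only beta gene tested with a change below 0, at -0.06 (SE 0.15), and the sign of so small a value is within its error.

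The alpha genes varied around smaller values. Pcdha8, an isoform chosen at random among alpha promoters in neurons, was at -0.61, -0.47 and -0.63 on the control arrays and -0.39, -0.27 and -0.34 on the knockdown arrays, a change of 0.24 (SE 0.066). Its other, dimmer probe gave 0.23, with overlap between the groups. Pcdha9 was at -1.22, -1.34 and -1.29 on the control arrays and -1.20, -1.18 and -1.37 on the knockdown arrays, a change of 0.03 (SE 0.071). The groups overlapped, as they did for Pcdha11 (0.40, SE 0.28) and Pcdha12 (0.10, SE 0.30). Pcdha4 did not clear the background on any of the arrays.

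The C-type isoforms are those that neurons express more uniformly than by random choice, and 3 of the 5 had a probe. Pcdhac1 was at -4.92, -4.63 and -4.75 on the control arrays and -4.71, -4.89 and -4.78 on the knockdown arrays, a change of -0.03 (SE 0.094). The probes of Pcdhac2 disagreed. The brighter one was at 1.0, 1.06 and 1.14 on the control arrays and 1.21, 1.09 and 1.14 on the knockdown arrays, a change of 0.08 (SE 0.060) with overlap. The dimmer one was at -1.83, -1.83 and -1.95 on the control arrays and -1.42, -1.08 and -1.36 on the knockdown arrays, a change of 0.59 (SE 0.11) without overlap, and it passed the call limit at 1.5-fold. The gene is read from its brighter probe here, by the rule used for every gene. Pcdhgc5 was at -4.56, -4.27 and -3.97 on the control arrays and -3.98, -4.20 and -4.20 on the knockdown arrays, a change of 0.14 (SE 0.17). Pcdhb1, Pcdhac2 and Pcdhgc5 are known to lack the conserved promoter element that most clustered protocadherins carry. These genes were put together after their values were seen. Promoter sequences were not analysed here, and a link between the element and the changes was not tested.

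Pcdhga9 went the other way from the beta genes. On its brighter probe it was at 3.44, 3.46 and 3.43 on the control arrays and 2.64, 2.64 and 2.75 on the knockdown arrays, a change of -0.76 (SE 0.049). Its other probe fell from -1.78, -1.86 and -1.72 on the control arrays to -2.42, -2.61 and -2.58 on the knockdown arrays, a change of -0.75 (SE 0.071). Both probes were called lower, and on both every knockdown array was below every control array. The brighter probe read 8121 to 8165 units on the control arrays and 4491 to 4918 units on the knockdown arrays. Whether it reports the variable exon of Pcdhga9 or the exons that all gamma genes share was not analysed here. Pcdhga1 was at -5.53, -5.81 and -5.19 on the control arrays and -5.14, -4.70 and -4.64 on the knockdown arrays, and its change of 0.68 (SE 0.21) was not called. Pcdhgb1 overlapped at -0.10 (SE 0.13), and the signals of Pcdhga5 and Pcdhga10 did not clear the background.

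The families were also set side by side within each array, taking every gene's deviation from its own control mean. The beta median was 0.74, 0.91 and 0.74 on knockdown replicates 1 to 3, and -0.03, 0.01 and -0.00074 on the controls. The alpha median was 0.08, 0.30 and 0.08 on the knockdown arrays and the gamma median 0.16, 0.23 and 0.25. The beta median therefore exceeded both on each knockdown array. Beta minus alpha and gamma together came to 0.66, 0.61 and 0.67 on the knockdown arrays, and to 0.01, -0.09 and 0.01 on the controls. Group means of this difference were 0.65 ± 0.030 (SD, n = 3) in knockdown and -0.02 ± 0.057 (SD, n = 3) in control cells. No p is given, since the beta genes were the reason for the choice, and only 7 alpha and 6 gamma genes enter. Among these, Pcdha4, Pcdhga5 and Pcdhga10 did not clear the background on any array, nor did Pcdhb13 among the beta genes. A filter requiring every array of at least 1 group to clear the background gave median changes of 0.081 for alpha, 0.020 for gamma and 0.89 for beta genes.

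**Figure D3:**
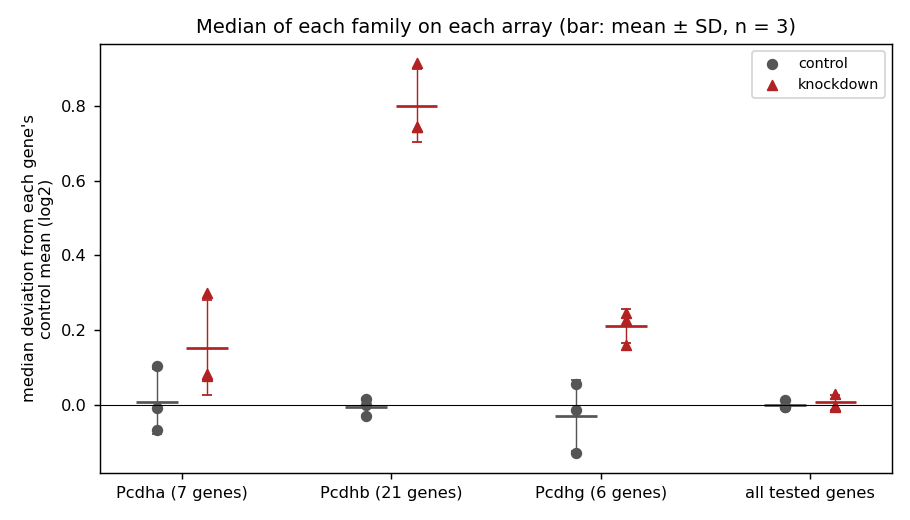
Median over the tested genes of a family of the deviation from each gene's control mean, in log2 units (vertical axis), on each array, for Pcdha, Pcdhb, Pcdhg and all tested genes (horizontal axis), with control arrays as circles, knockdown arrays as triangles and bars for mean ± SD (n = 3). The Pcdhb medians of the knockdown arrays, 0.74 to 0.91, lie above those of the other families, which are at most 0.30. Pcdha4, Pcdhb13, Pcdhga5 and Pcdhga10 enter these medians although their signals did not clear the background.

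The arrays lay in 2 rows of the slide. All controls and knockdown replicate 1 were in the first row, and knockdown replicates 2 and 3 were in the second, which held no control. On knockdown replicate 1 alone, 20 of 21 beta genes were above all 3 controls, the exception being Pcdhb8, and the median beta change was 0.74. Over all genes tested, 41.7% were above all 3 controls on that array. With the slide row as a block, where the change rests on that single array, 8 beta genes were called, against 2.99% of all genes tested in that fit. Pcdhb13, which did not clear the background on any array, counts among those 8 and among the 20 above all controls. Correction by normexp with an offset of 50, a constant close to the signals of many beta genes, left 5 calls among 20 beta genes with 75th percentile scaling and 4 among 20 with quantile normalization. Calls for higher signal over all genes were fewer there too, at 1.67% and 1.72%. With an offset of 0 there were 11 beta calls, against 3.06% of all genes.

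**Figure D4:**
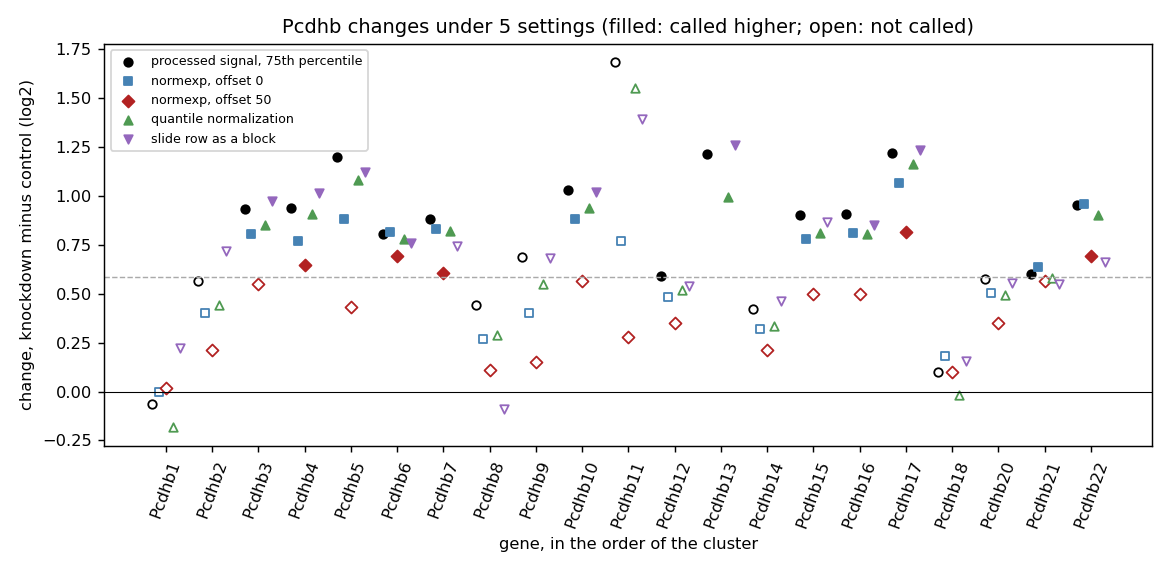
Change of each Pcdhb gene, knockdown minus control in log2 units (vertical axis), with genes in cluster order (horizontal axis), under 5 settings; filled symbols were called higher, open ones were not, and the dashed line is the 1.5-fold limit. Changes are smaller with the normexp offset of 50, where the median is 0.47 against 0.88, and most stay above 0.

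Of 11 genes tested on either side of and between the clusters, 1 was called higher and 1 lower, with a median change of 0.011. Over all genes tested, 3.91% were called higher and 5.00% lower. Taf7, a subunit of the general transcription factor TFIID, lies between the beta and gamma clusters. It rose from -0.44, -0.42 and -0.36 on the control arrays to 0.32, 0.31 and 0.27 on the knockdown arrays, a change of 0.70 (SE 0.044, limma adjusted p = 0.00091). Slc25a2, a mitochondrial ornithine carrier next to it, did not clear the background. Zmat2, a zinc finger protein of the spliceosome on the alpha side, fell from 4.77, 4.70 and 4.64 to 4.09, 4.05 and 3.95, a change of -0.68 (SE 0.061, limma adjusted p = 0.0022). Both genes had groups that did not overlap, as did 27.7% of all genes tested in the upward and 27.1% in the downward direction. With the probes of a gene averaged Taf7 was not called (0.47), nor was Zmat2 (-0.55) with normexp offset 50 and quantile normalization. On the gamma side Diaph1, a formin that nucleates actin, was at -0.11 and the histone deacetylase Hdac3 at -0.06, neither of them called. Rell2 passed the p threshold but not the fold limit, at 0.45 (SE 0.048, limma adjusted p = 0.0035).

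Proteins that choose, loop or silence these promoters were followed as a list of 19 genes, all tested. None passed both limits in limma, and the median change was 0.13. Without the fold limit 9 passed the adjusted p threshold, 6 of them higher and 3 lower, where 15.8% of all genes were higher and 15.8% lower. The higher ones were Rest, a repressor of neuronal genes, at 0.45 (SE 0.049, limma adjusted p = 0.0039), the cohesin loader Nipbl at 0.40 (SE 0.082, limma adjusted p = 0.025), and Hells (0.27), Trim28 (0.25), Wiz (0.19) and Ehmt2 (0.15), which act in gene silencing. The lower ones were the cohesin subunits Stag2, at -0.36 (SE 0.051, limma adjusted p = 0.0081), and Smc1a, at -0.28, and the maintenance DNA methyltransferase Dnmt1, at -0.19 (limma adjusted p = 0.040). Ctcf, at 0.05 (SE 0.055, limma adjusted p = 0.54), and the other DNA methyltransferases, Dnmt3a at 0.09 and Dnmt3b at 0.12, did not pass the threshold. Neither did Smchd1, at -0.02 (SE 0.080, limma adjusted p = 0.90), or Setdb1, at 0.13 (SE 0.041, limma adjusted p = 0.086).

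Among proteins that bind or process clustered protocadherins, 18 of 20 were tested, with a median change of 0.0094. Of these, 0 were called higher and 1 lower, where 3.91% of all genes tested were called higher and 5.00% lower. The gene called was Adam10, the protease that sheds the outer part of several cadherins. It fell from 1.91, 1.87 and 1.97 on the control arrays to 0.95, 0.81 and 0.85 on the knockdown arrays, a change of -1.05 (SE 0.057, limma adjusted p = 0.00066). Prkca, a protein kinase C, was not called on its brightest probe (-0.34, limma adjusted p = 0.0065), but another probe of it was called lower, at -0.78. The tyrosine kinase Fyn was at -0.03, and Wasf1, of the WAVE actin complex, at 0.27, below the fold limit.

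Cadherins outside the clusters held 4 called genes, where 3.91% of all genes tested were called higher and 5.00% lower. Of 12 protocadherins outside the clusters 7 were tested and 2 were called higher, with a median change of 0.041. They were Pcdh17, at 0.69 (SE 0.042, limma adjusted p = 0.00085), and Pcdh19, at 0.63 (SE 0.069, limma adjusted p = 0.0039), both adhesion proteins of neurons. Pcdh15, a component of hair cell tip links, was not called on its brightest probe (-0.28), but other probes of it were called lower, at -0.87 and -0.59. Of 20 classical and large cadherins 16 were tested, of which 4 (Cdh5, Cdh10, Cdh13 and Fat4) cleared the background on no array. Among the 16, with a median change of 0.21, 2 were called higher. They were the flamingo cadherins Celsr1, at 0.96 (SE 0.12, limma adjusted p = 0.0059), and Celsr2, at 0.77 (SE 0.075, limma adjusted p = 0.0027). The calls of Pcdh17, Celsr1 and Celsr2 were lost with normexp offset 50 under either scaling (0.43 to 0.58), that of Pcdh17 also with offset 0 (0.58), that of Celsr1 with the slide row as a block (0.96) and that of Celsr2 with averaged probes (0.35). Cdh2, the main neuronal classical cadherin, was at -0.14 (SE 0.050) and was not called.

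The targeted genes followed the labels: Nfya changed by -0.76 (SE 0.055) and Nfyc by -1.81 (SE 0.045), while Nfyb, the untargeted subunit, changed by 0.83 (SE 0.060). All 8 neuroblastoma and sympathetic neuron markers were well above background on every array, with summed signals of 109082 to 114921 units in control and 109165 to 116201 units in knockdown cells. One of them, Th, the rate-limiting enzyme of catecholamine synthesis, was called lower, at -0.62 (SE 0.048). Of 7 markers of other cells 5 were tested, 4 of them well above background on all arrays, with summed signals of 357 to 370 units in control and 300 to 325 units in knockdown cells. Col1a1, a collagen of connective tissue, was called lower, at -0.77 (SE 0.20), a call lost when control replicate 1, control replicate 2 or knockdown replicate 1 or 2 was left out. The other markers tested were Ptprc (-0.52), Gfap (-0.39), Mbp (-0.18) and Pecam1 (-0.06), none of them called. Over the 5 markers of other cells tested the median change was -0.39. Of all genes tested, 5.00% were called lower. The part of these markers in the results was not tested.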

How the data were processed

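Groups and replicate numbers came from the sample titles. The 6 one-colour arrays were read by the authors with Feature Extraction 10.10.1.1 of Agilent. The deposited tables hold, per spot, a linear intensity already corrected for background by that software (the processed signal), with flags for outliers, saturation and signal well above background. The deposited series matrix holds log2 values, whose differences between arrays matched those computed here to within 0.0060 in nearly all probes. It was used as an alternative only. GeneSpring was the authors' software for the comparison, with genes under the 20th percentile of signal excluded.

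Control spots and outlier spots were left out, the 75th percentile of each array was subtracted on the log2 scale, and repeated spots were averaged per probe. From 55681 probes, 245 had a missing value, and 42086 reached the 20th percentile on all 3 arrays of a group and were tested in R 4.3.3 by limma 3.58.1 (lmFit, then eBayes, no covariates, Benjamini-Hochberg over all probes). The number of arrays limits the precision. Accessions were named through a RefSeq table of assembly GRCm38.p6. A gene was read from its brightest probe. Coordinates are left out because the array was annotated on a different build, and the sequences of members were not analysed here. The fit was checked on simulated data.

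The members, lists and tests were chosen with earlier results of these data known. Named are all called members, C-type members, the brightest uncalled members of each family, members beside the call limit, the NF-Y subunits and called genes of the lists; other members and list genes were added for completeness after their values were seen. Alternatives were other scalings, background corrections, filters, variance models and thresholds, the series matrix, the replicate number or slide row as a block, averaged probes, and each array left out. Normexp used the median spot signal, since the tables used here hold no mean signal; this choice, the offset of 0 and the first slide row alone were added after seeing the data.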

Additional observations from a re-analysis of the deposited data

How the results depend on the processing

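Of 21 alternatives, all gave a beta median above 0 (0.41 to 0.90) and called Pcdhga9 lower wherever a test was run. Pcdhb4, Pcdhb6 and Pcdhb17 were called higher in all 20 tested alternatives, while Pcdhb12 was called in 11, Pcdhb22 in 12 and Pcdhb7 and Pcdhb15 in 13 each. Beta genes called higher numbered 5 with normexp offset 50, 4 when quantile normalization followed and 8 with slide row as a block, where only knockdown replicate 1 sets the change. In the other fits with the fold limit they numbered 10 to 13, where 3.06% to 4.09% of all genes were called higher. Without that limit they numbered 16, against 15.8% of all genes. The count was 10 to 12 with an array left out. It was 11 with the replicate number as a block, where Pcdhb12 and Pcdhb22 were lost. Same-numbered arrays did not deviate together (r = 0.019, 0.068 and 0.0031), so the numbers were not treated as pairs. With an array left out, calls of Pcdhb7, Pcdhb12, Pcdhb15, Pcdhb21 and Pcdhb22 were lost in some cases, those of the other called beta genes in none. Array weights called 1 gamma gene higher, Pcdhga1, and leaving out control replicate 2 called 1 gamma and 1 alpha gene, Pcdhga5 and Pcdha4, neither above background.

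The beta median moved to 0.81 with quantile normalization, 0.77 with normexp offset 0, 0.47 with offset 50, 0.41 with offset 50 and quantile normalization, and 0.74 with slide row as a block or the first slide row alone, and ranged from 0.75 to 0.90 with an array left out. The alpha median was 0.23 with averaged probes and 0.065 to 0.29 with an array left out. The gamma median was 0.090 with quantile normalization, 0.049 with normexp offset 0, 0.044 with offset 50, -0.00728 with offset 50 and quantile normalization, 0.14 with the 20th percentile on all 6 arrays, 0.020 with the background filter, and 0.13 to 0.24 with an array left out. Beta minus alpha and gamma, from the median changes, was 0.74, and it was 0.38 with offset 50 under either scaling, 0.63 with offset 0, 0.66 with slide row as a block or the first row alone, 0.65 with averaged probes, 0.81 with the background filter, and 0.58 to 0.78 with an array left out. The offset of 50 is near the signals of these dim genes and shrinks their changes by construction. Dim signal over background limits Pcdhb8, Pcdhb9, Pcdhb11, Pcdhb13 and Pcdhb19. The mean spot signal named for normexp was not in the tables used here, so that form was not run.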
